A study of Homo sapiens with 9 samples.

Results

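The miR-30 family was examined by small RNA sequencing in HCT116, a human colorectal carcinoma line, and in sublines derived from it, HCT-FU-c and HCT-Oxa-c. Its members were the mature strands hsa-miR-30a-5p, hsa-miR-30a-3p, hsa-miR-30b-5p, hsa-miR-30b-3p, hsa-miR-30c-5p, hsa-miR-30c-2-3p, hsa-miR-30d-5p, hsa-miR-30d-3p, hsa-miR-30e-5p and hsa-miR-30e-3p (hsa, human, is left out from here on), taken by name from the count table, so they were 10 of the 1198 miRNAs listed. HCT-Oxa-c had been selected from HCT116 with rising doses of oxaliplatin, and HCT-FU-c with rising doses of 5-fluorouracil, both under continuous exposure, while HCT116 is the drug-sensitive parent. Each line was represented by 3 samples that the titles call cell culture replicates, giving 9 libraries. All were grown in medium with fetal bovine serum. Each group is thus cultures of a single line, and an effect of the drug cannot be told apart from other differences between these lines. The question was whether the miR-30 strands, which come from 3 genomic loci, differ in level between the lines, and whether strands of 1 locus differ together.

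miRNAs are cut from hairpin precursors, and each hairpin can give a strand from its 5′ side (5p) and its 3′ side (3p). The strand that is usually kept in the silencing complex is called the guide, the other the passenger. The seed, the bases near the 5′ end that pair with target mRNAs, is the same in all the miR-30 guides, which are the 5p strands, so these can act on overlapping targets. The family is abundant in epithelia and is known for repressing SNAI1, a transcription factor that drives epithelial-mesenchymal transition, and BECN1, an autophagy protein.

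RefSeq sequences (GRCh38.p14) were matched to 6 of the members. They are shown because reads of miR-30 strands with the same seed are told apart only by bases outside it. The seed stands in capitals (bases 2 to 8):
miR-30a-5p: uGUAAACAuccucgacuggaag
miR-30e-5p: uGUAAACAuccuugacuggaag
miR-30c-5p: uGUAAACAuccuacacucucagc
miR-30a-3p: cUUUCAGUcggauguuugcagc
miR-30e-3p: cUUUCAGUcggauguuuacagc
miR-30c-2-3p: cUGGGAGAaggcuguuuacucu
miR-30c-1-3p: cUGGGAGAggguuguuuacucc

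Counted from 1 at the 5′ end, miR-30a-5p and miR-30e-5p differed by a single substitution, C13U, with the miR-30a base written first. Their 3p strands also differed by a single substitution, G18A. miR-30a-5p and miR-30c-5p shared their first 12 bases. miR-30c-1-3p is not a member, and is given because it differs from miR-30c-2-3p at G9A, U12C and C22U and so marks the other gene for miR-30c.

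The precursor of the strands that differed most is shown with the miR-30a-5p and miR-30a-3p stretches in capitals:
MIR30A: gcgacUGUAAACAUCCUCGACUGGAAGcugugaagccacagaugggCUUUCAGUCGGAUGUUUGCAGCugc

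In the GENCODE 29 annotation of GRCh38 the 6 hairpin genes lie in 3 pairs. MIR30A (chr6:71403551-71403621) and MIR30C2 (chr6:71376960-71377031) lie on the minus strand of chromosome 6, 26519 bases apart. Both are in introns of the long noncoding RNA genes LINC00472 and AL136164.2, on the same strand as these hosts. MIR30E (chr1:40754355-40754446) and MIR30C1 (chr1:40757284-40757372) lie on the plus strand of chromosome 1, 2837 bases apart, in introns of NFYC, which encodes a subunit of the transcription factor NF-Y. Each of them was intronic in all 16 NFYC transcripts that span it. MIR30B and MIR30D lie on the minus strand of chromosome 8, 4268 bases apart, and no annotated gene spans both. Mature miR-30c-5p is identical from MIR30C1 and MIR30C2, so its reads cannot be assigned to a locus.

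Libraries held 856383 to 2207538 counts, of which miR-21-5p took 39.98 to 57.1% and the 10 members 2.30 to 3.25%. Levels are given as CPM, the count as a share of the TMM-scaled library size, in parts of 1e+06. The replicate 3 library of each line stood apart from the other replicates and was the shallowest of its line. It held 70 to 246 counts of miR-451a, an erythrocyte miRNA, against 0 to 2 in replicates 1 and 2, and 20 to 45 counts of the liver miRNA miR-122-5p against 0 to 7. The summed level of 8 miRNAs of blood, liver, neurons and muscle, of which 7 were listed, ran from 4.75 to 192 CPM in HCT116, 8.94 to 112 CPM in HCT-FU-c and 4.92 to 317 CPM in HCT-Oxa-c. Their part in the results was not tested. The summed intestinal epithelial miRNAs (miR-192-5p, miR-194-5p, miR-215-5p, miR-200c-3p and miR-141-3p) lay between 9576 and 12654 CPM in every library. Most of that sum was miR-200c-3p, at 9124 to 11370 CPM, while miR-192-5p, miR-194-5p and miR-215-5p lay between 1.05 and 202 CPM. None of the 4 that could be tested was called in any comparison, except miR-194-5p between the sublines in the fit with a replicate block described next.

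Tests used edgeR's quasi-likelihood F test over all 9 libraries, with p-values adjusted by Benjamini-Hochberg over the 367 miRNAs that passed a filter on low counts, and a miRNA was called at an adjusted p under 0.05. Of the 10 members, 8 passed the filter, while miR-30b-3p and miR-30c-2-3p did not. The replicate 3 libraries of the lines deviated together, while replicates 1 and 2 resembled each other across lines whatever their number. Values from a fit with the replicate number as a block are given where they change a call. HCT116 libraries enter both comparisons of a subline with the parent, so these comparisons are not independent of each other.

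**Figure D1:**
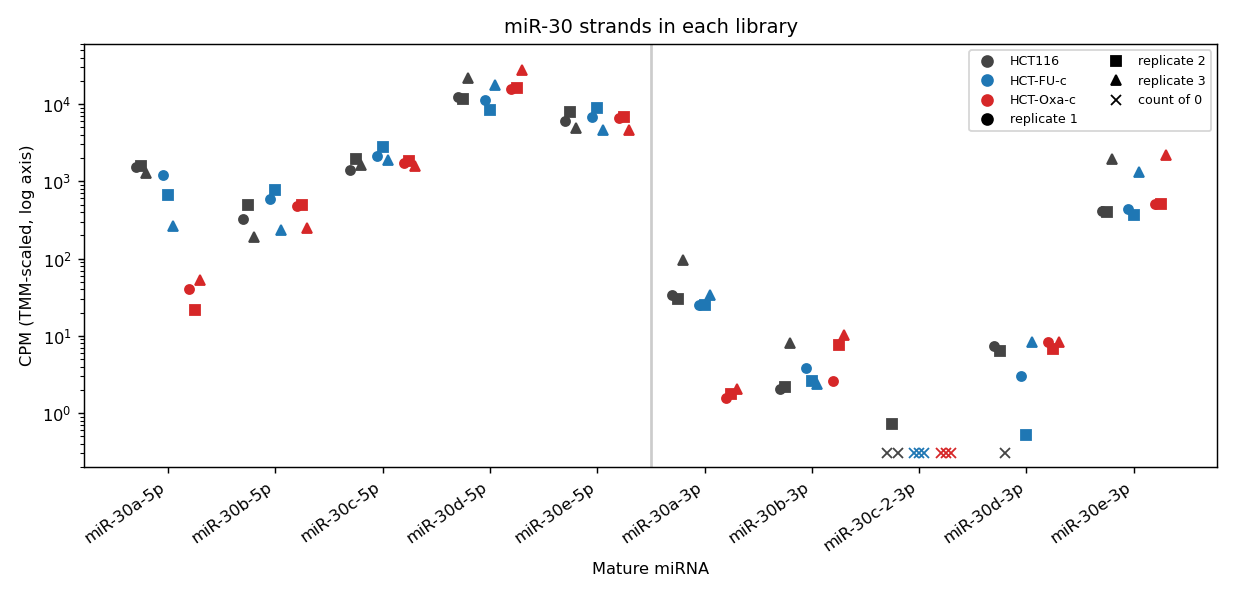
CPM (TMM-scaled, log axis) of the 10 miR-30 strands in each of the 9 libraries, with colours for the lines, marker shapes for the replicates and crosses for a count of 0. The HCT-Oxa-c libraries lie far below the others for miR-30a-5p (21.5 to 52.4 CPM) and miR-30a-3p (1.57 to 2.05 CPM), and the replicate 3 libraries stand high for miR-30e-3p in every line.

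The strands of MIR30A, on chromosome 6, gave the clearest difference. miR-30a-5p, the guide strand of MIR30A, was at 1556, 1566 and 1283 CPM in the HCT116 libraries (2290, 2192 and 960 counts). In HCT-FU-c it was at 1190, 662 and 267 CPM (1574, 1260 and 224 counts). In HCT-Oxa-c it was at 40.4, 21.5 and 52.4 CPM (77, 48 and 51 counts). All HCT-Oxa-c libraries lay below all others, and all HCT-FU-c libraries lay below all HCT116 libraries. In bulk RNA, fewer cells with the strand and less of it per cell cannot be told apart.

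Between HCT-Oxa-c and HCT116, miR-30a-5p fell by 5.28 on the log2 scale (SE 0.60, 95% interval -6.64 to -3.92, adjusted p = 0.00193, edgeR), which is 38.9-fold lower. The mean was 38.1 ± 15.6 CPM in HCT-Oxa-c (SD, n = 3) and 1468 ± 160.5 CPM in HCT116 (SD, n = 3). Within a replicate number the level was 38.5-, 72.9- and 24.5-fold lower in replicates 1, 2 and 3. With replicates 1 and 2 only, the log2 fold change was -5.65 (SE 0.34, adjusted p = 2.45e-08, edgeR), so the miR-30a-5p difference was as large without the libraries that stood apart. In that fit the miR-30a strands were again the 2 members called against HCT116, where 11.3% of 380 tested miRNAs were called. For HCT-FU-c against HCT116 it called no member (3.42% of all), and between the sublines 3 members (17.6% of all), the miR-30a strands and miR-30d-5p. This fit was chosen after seeing the data.

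The passenger strand miR-30a-3p had 50, 42 and 72 counts in the HCT116 libraries, 33, 48 and 28 in HCT-FU-c, with 3, 4 and 2 in HCT-Oxa-c. The corresponding levels were 34.0, 30.01 and 96.2 CPM in HCT116, then 25.0, 25.2 and 33.4 CPM in HCT-FU-c, then 1.57, 1.79 and 2.05 CPM in HCT-Oxa-c. Every HCT-Oxa-c library was below every other library, while HCT-FU-c and HCT116 overlapped. Between HCT-Oxa-c and HCT116 it fell by 4.83 on the log2 scale (SE 0.57, adjusted p = 0.00193, edgeR). With replicates 1 and 2 only the difference was smaller, at -4.17 (SE 0.48, adjusted p = 3.14e-05, edgeR), and without HCT116 replicate 3 alone it was -4.13, still called. Since the HCT-Oxa-c counts are so low, the ratio is also given from summed counts. With 164 counts in HCT116 against 9 in HCT-Oxa-c, the scaled level was 25.8-fold higher in HCT116, with an exact 95% interval of 13.2 to 57.3 that covers counting error only. Read in the same way, miR-30a-5p was 43.7-fold higher in HCT116 (37.6 to 51.1).

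These were the only members called between HCT-Oxa-c and HCT116, 2 of the 8 tested, both lower. Over all tested miRNAs 2.45% were called in either direction and 1.09% were called lower. They were also the only members whose HCT-Oxa-c and HCT116 libraries did not overlap, where 16.1% of all tested miRNAs did not overlap. Over the 8 members the median log2 fold change was 0.13, with 5 higher and 3 lower, against -0.01 over all tested miRNAs.

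MIR30C2, the neighbour of MIR30A, could hardly be read. Its own strand miR-30c-2-3p had 1 count in HCT116 replicate 2 and 0 in the other 8 libraries. A count of 0 allows a level of up to 1.34 to 4.01 CPM, depending on the library (3 counts, counting error only). Therefore no difference in this strand was detectable at this depth. miR-30c-1-3p, from chromosome 1, had 2, 6 and 2 counts in HCT116, 6, 12 and 0 in HCT-FU-c, with 3, 4 and 3 in HCT-Oxa-c.

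miR-30c-5p, the guide strand shared by the chromosome 6 and chromosome 1 loci, was at 1409, 1956 and 1615 CPM in HCT116. It was at 1722, 1844 and 1566 CPM in HCT-Oxa-c and at 2111, 2782 and 1903 CPM in HCT-FU-c. HCT-Oxa-c and HCT116 overlapped fully, and the HCT-FU-c libraries were the highest except that replicate 3 of HCT-FU-c lay below replicate 2 of HCT116. HCT-Oxa-c differed from HCT116 by a log2 fold change of 0.04, with a 95% interval of -0.48 to 0.57 (edgeR). That interval does not reach the size of the miR-30a-5p decrease. Since miR-30c-5p reads cannot be assigned to MIR30C1 or MIR30C2, it does not show whether the output of MIR30C2 differed.

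In HCT-FU-c, miR-30a-5p averaged 706.5 ± 463 CPM (SD, n = 3), a spread wider than in the other lines. Against HCT116 this was a log2 fold change of -1.05 (SE 0.50), which did not pass the test (adjusted p = 0.913, edgeR). With the replicate block it was -1.20 (SE 0.28, adjusted p = 0.0173, edgeR), which passed. Under the block with total counts as the library size, a check chosen after seeing the data, it was -1.01 and did not pass (adjusted p = 0.0526, edgeR). Leaving out 1 library at a time, without the block, gave -1.69 without HCT-FU-c replicate 1 and -0.71 without HCT-FU-c replicate 3, the extremes, and no call. The HCT-FU-c level was 0.765, 0.423 and 0.208 of the HCT116 level in replicates 1, 2 and 3, so it was lower in every replicate and lowest in the shallow replicate 3. With replicates 1 and 2 only, the log2 fold change was -0.81 and did not pass (adjusted p = 0.119, edgeR). miR-30a-3p had a log2 fold change of -0.93 (adjusted p = 0.913, edgeR), and the block left it uncalled as well (adjusted p = 0.214).

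No member was called between HCT-FU-c and HCT116 without the block, and neither was any other miRNA (0% of 367). At an unadjusted p under 0.05 edgeR gave 15 miRNAs, which is 4.09%, with no member among them, and DESeq2 called 4 miRNAs (1.09%), again with no member. With the block 5.45% of all miRNAs were called, and 2 of the 8 members, miR-30a-5p lower and miR-30b-5p higher. The HCT-FU-c libraries did not overlap with HCT116 for miR-30a-5p alone among the members, against 8.72% of all tested miRNAs. Their median log2 fold change, over all 8, was -0.33, with 3 higher and 5 lower, against 0.02 over all tested miRNAs.

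Between the sublines, miR-30a-5p was 18.7-fold lower in the oxaliplatin-selected one (log2 fold change -4.23, SE 0.57, adjusted p = 0.00443, edgeR). miR-30a-3p was 14.9-fold lower (log2 fold change -3.90, SE 0.56, adjusted p = 0.00443, edgeR). Within a replicate number the miR-30a-5p level was 29.5-, 30.8- and 5.10-fold lower, the last in replicate 3, where HCT-FU-c was itself low. These were the 2 members called, both lower, against 4.36% of all tested miRNAs called in either direction and 0.817% called lower. With the block 5 of the 8 members were called, against 26.4% of all. The other 3 were miR-30c-5p, miR-30d-5p and miR-30e-3p. Over the 8 members the median was -0.27 on the log2 scale, with 3 higher and 5 lower, against -0.07 over all tested miRNAs.

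**Figure D2:**
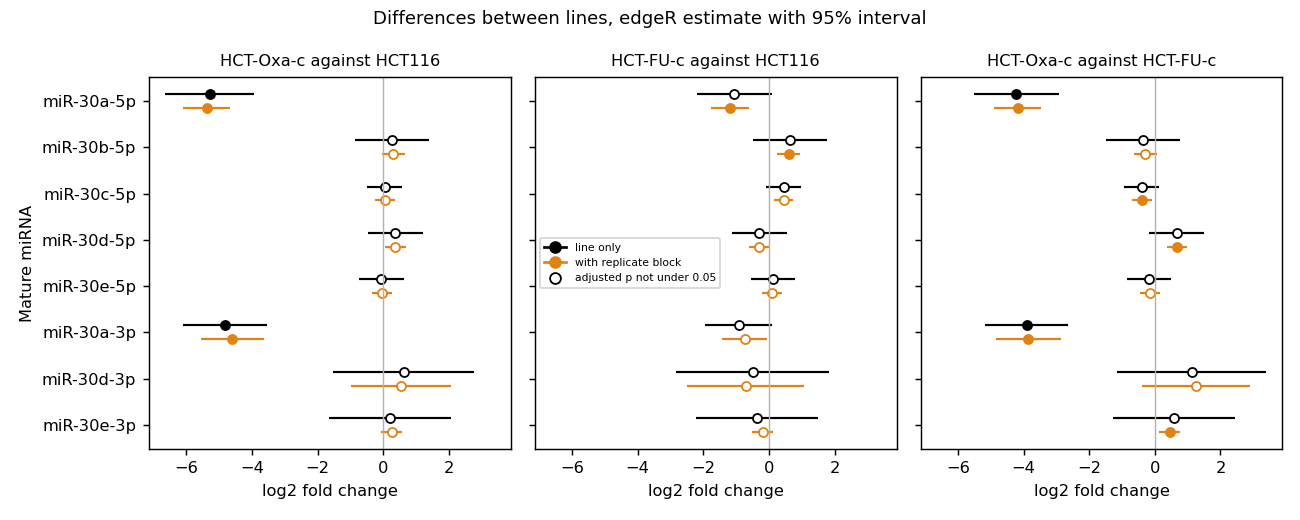
Log2 fold changes of the 8 tested members (x axis) in the 3 comparisons, as edgeR estimates with 95% intervals, without (black) and with (orange) the replicate block; filled points have an adjusted p under 0.05. Without the block only the miR-30a strands are filled, at -5.28 and -4.83 for HCT-Oxa-c against HCT116 and at -4.23 and -3.90 between the sublines.

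The chromosome 1 locus gives miR-30e and 1 of the sources of miR-30c. miR-30e-5p, its guide strand, was at 6030, 7803 and 4873 CPM in HCT116, at 6723, 8952 and 4640 CPM in HCT-FU-c and at 6510, 6832 and 4672 CPM in HCT-Oxa-c. The lines overlapped, and replicate 3 was the lowest library of each. The log2 fold change was -0.05 for HCT-Oxa-c against HCT116 (95% interval -0.73 to 0.62) and 0.12 for HCT-FU-c against HCT116 (95% interval -0.56 to 0.80). Neither passed the test.

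miR-30e-3p was at 417, 403 and 1930 CPM in HCT116. It was at 445, 370 and 1313 CPM in HCT-FU-c and at 509, 509 and 2172 CPM in HCT-Oxa-c. Replicate 3 was 4.71-fold above the mean of replicates 1 and 2 in HCT116, 3.22-fold in HCT-FU-c and 4.27-fold in HCT-Oxa-c, so this strand varied far more between replicates than between lines. The 95% interval for HCT-Oxa-c against HCT116 accordingly ran from -1.64 to 2.07 around a log2 fold change of 0.22. Between the sublines the log2 fold change was 0.58 (adjusted p = 0.825, edgeR), and 0.46 with the block (adjusted p = 0.0331, edgeR), with HCT-Oxa-c higher in 3 of 3 replicates. Under the block with total counts it did not pass (0.29, adjusted p = 0.239, edgeR). With replicates 1 and 2 only it did not pass (0.40, adjusted p = 0.164, edgeR).

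Between the sublines miR-30c-5p was lower in HCT-Oxa-c without overlap of the libraries, which held for 22.9% of all tested miRNAs and for 3 members, the other two being the miR-30a strands. Its log2 fold change was -0.41 (adjusted p = 0.485, edgeR) and, with the block, -0.39 (adjusted p = 0.0490, edgeR), just under the threshold. Under the block it did not pass with RLE size factors (adjusted p = 0.112, edgeR) or with TMM computed without miR-21-5p (adjusted p = 0.117), both chosen after seeing the data. Against HCT116, HCT-FU-c had 1.498, 1.42 and 1.18 times the miR-30c-5p level in replicates 1, 2 and 3. On the log2 scale this was 0.45 (adjusted p = 0.918, edgeR), and the block did not bring it past the threshold (adjusted p = 0.0815), although the block with total counts did (0.61, adjusted p = 0.0405).

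The chromosome 8 locus gave the most and the least abundant guide strands of HCT116. miR-30d-5p was at 12427, 11780 and 21674 CPM in HCT116. It was at 11232, 8425 and 17751 CPM in HCT-FU-c and at 15584, 15959 and 27581 CPM in HCT-Oxa-c. The lines overlapped because replicate 3 was 1.75- to 1.81-fold above the mean of the other replicates in each, but within a replicate number HCT-Oxa-c was highest and HCT-FU-c lowest. The HCT-Oxa-c level was 1.39, 1.89 and 1.55 times that of HCT-FU-c in replicates 1, 2 and 3.

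The log2 fold change of miR-30d-5p between the sublines was 0.66 (95% interval -0.18 to 1.51, adjusted p = 0.485, edgeR) without the block. It was 0.67 with it (SE 0.15, adjusted p = 0.00173, edgeR). With replicates 1 and 2 only, it was 0.76 and passed as well (adjusted p = 0.00974, edgeR). Against HCT116, HCT-Oxa-c had a log2 fold change of 0.37 (95% interval -0.48 to 1.21, adjusted p = 0.912, edgeR), and HCT-FU-c of -0.29 (95% interval -1.14 to 0.55, adjusted p = 0.997, edgeR).

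miR-30b-5p, from the same locus, was at 326, 501 and 190 CPM in HCT116. It was at 583, 768 and 235 CPM in HCT-FU-c and at 479, 498 and 245 CPM in HCT-Oxa-c. Replicate 3 was the lowest library of every line, at 0.459, 0.348 and 0.502 of the mean of replicates 1 and 2 in HCT116, HCT-FU-c and HCT-Oxa-c. In replicate 3 the guide strands of this locus thus lay on opposite sides of the other replicates, miR-30d-5p above and miR-30b-5p below.

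HCT-FU-c exceeded HCT116 for miR-30b-5p in 3 of 3 replicates, at 1.79, 1.53 and 1.24 times its level. This was a log2 fold change of 0.64 (SE 0.50, adjusted p = 0.997, edgeR) and, with the block, 0.60 (SE 0.17, adjusted p = 0.0389, edgeR). Under the block with other library scalings, a check chosen after seeing the data, the adjusted p was 0.0677 with RLE size factors and 0.0516 with TMM computed without miR-21-5p, the most abundant miRNA, so the call rests on the scaling. With replicates 1 and 2 only it did not pass either (adjusted p = 0.147, edgeR).

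The passenger strands of chromosome 8 were near the detection limit. miR-30b-3p had 3, 3 and 6 counts in HCT116, 5, 5 and 2 in HCT-FU-c, with 5, 17 and 10 in HCT-Oxa-c, and was not tested. miR-30d-3p had 11, 9 and 0 counts in HCT116, 4, 1 and 7 in HCT-FU-c, with 16, 15 and 8 in HCT-Oxa-c. Its log2 fold changes were 0.62 (HCT-Oxa-c) and -0.50 (HCT-FU-c) against the parent and 1.12 between the sublines, all with 95% intervals that spanned 0 (-1.54 to 2.78, -2.84 to 1.83 and -1.15 to 3.39).

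The share of a hairpin's reads that came from its 3p strand compares strands within a library and needs no scaling. For miR-30a it was 2.14, 1.88 and 6.98% in the HCT116 libraries and 2.05, 3.67 and 11.1% in HCT-FU-c. In HCT-Oxa-c it was 3.75, 7.69 and 3.77%, with exact (Clopper-Pearson) 95% intervals of 0.78 to 10.6%, 2.14 to 18.5% and 0.46 to 13.0%. In replicates 1 and 2 the HCT-Oxa-c shares lay above those of the other lines, and in replicate 3 below them. Their intervals overlapped those of the same replicate number in the other lines. The 5p to 3p ratio of miR-30a differed by -0.89 on the log2 scale between HCT-Oxa-c and HCT116. With 1 library left out at a time this difference ranged from -1.51 to -0.53. An exact two-sided permutation test of it gave p = 0.3 (adjusted p = 0.9 over 9 such tests), where 3 against 3 libraries cannot give a p below 0.1.

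For miR-30e the 3p share was 6.47, 4.91 and 28.4% in HCT116. It was 6.20, 3.97 and 22.1% in HCT-FU-c, with 7.26, 6.93 and 31.7% in HCT-Oxa-c. Replicate 3 was above 20% in every line and the other replicates below 8%, a wider gap than any between lines. Within each replicate number the share was highest in HCT-Oxa-c and lowest in HCT-FU-c, and the exact 95% intervals of those sublines did not overlap, which covers counting error only. The permutation test of the strand ratio, which does not use the replicate number, gave exact p of 0.5 to 0.6 in the 3 comparisons (adjusted p = 0.9). For miR-30d at most 0.0601% of the reads came from the 3p strand in any library.

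**Figure D3:**
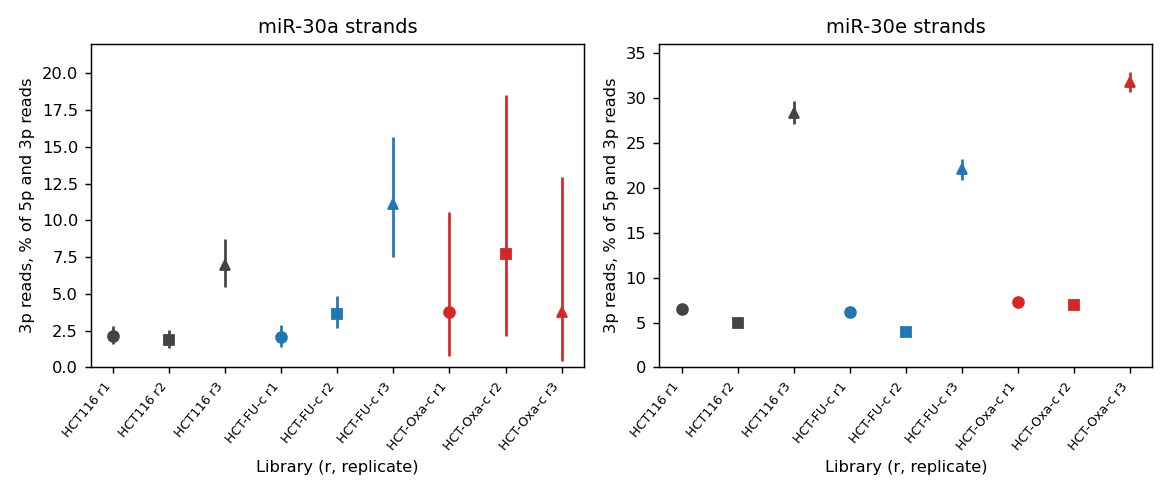
Share of 3p reads among the 5p and 3p reads of miR-30a (left) and miR-30e (right) in each library, in percent, with exact 95% intervals for counting error. The miR-30a intervals of HCT-Oxa-c reach up to 18.5% and cover most of the other values, and the replicate 3 libraries stand at 22.1 to 31.7% for miR-30e.

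Ratios between the guide strands of different loci were compared within libraries as well. miR-30a-5p counts were 0.1252, 0.133 and 0.0592 of the miR-30d-5p counts in HCT116, 0.106, 0.0786 and 0.0151 in HCT-FU-c, with 0.00261, 0.00136 and 0.00192 in HCT-Oxa-c. The HCT-Oxa-c libraries were below all others, at a log2 difference of -5.72 from HCT116 (exact two-sided permutation p = 0.1, the smallest the design allows, adjusted p = 0.18 over 9 tests). Against miR-30e-5p the difference was -5.30 (exact p = 0.1, adjusted p = 0.18). Between HCT-FU-c and HCT116 the miR-30a-5p to miR-30e-5p ratio differed by -1.39 without overlap (exact p = 0.1), and the ratio to miR-30d-5p by -0.99 with overlap (exact p = 0.5). The latter difference was -0.12 without HCT-FU-c replicate 3 and -1.53 without HCT-FU-c replicate 1. The miR-30d-5p to miR-30e-5p ratio overlapped between lines in all 3 comparisons, with exact p of 0.4 to 0.6 in a test that does not use the replicate number. Within each number the ratio was highest in HCT-Oxa-c and lowest in HCT-FU-c: the log2 ratio was 1.26, 1.04 and 0.74 in replicate 1 of HCT-Oxa-c, HCT116 and HCT-FU-c, 1.22, 0.59 and -0.087 in replicate 2, and 2.56, 2.15 and 1.94 in replicate 3.

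miR-30a-5p and the more abundant miR-30e-5p differ by a single base, so their counts are also given against each other. In HCT-Oxa-c miR-30a-5p counts were 0.620, 0.314 and 1.12% of the miR-30e-5p counts, against 20.1 to 26.3% in HCT116. The 3p strands also differ by a single base. In HCT-Oxa-c miR-30a-3p had 3, 4 and 2 counts beside 971, 1138 and 2116 of miR-30e-3p. The HCT116 libraries had 50, 42 and 72 beside 614, 564 and 1444. How many mismatches were allowed in counting is not given in the sources used here. The part of miR-30e reads in the miR-30a counts was not tested for either strand.

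Summed over the 5 guide strands, which share the seed, the family was at 21748, 23607 and 29634 CPM in HCT116. The sum was 21839, 21589 and 24796 CPM in HCT-FU-c and 24336, 25154 and 34117 CPM in HCT-Oxa-c. Within each replicate number the sum was highest in HCT-Oxa-c, at 1.12, 1.07 and 1.15 times the HCT116 sum, a description with no test. Pooled over replicates the lines overlapped, with means of 24996 ± 4123, 22741 ± 1784 and 27869 ± 5426 CPM (SD, n = 3). The log2 ratio of means was 0.16 for HCT-Oxa-c against HCT116 and -0.14 for HCT-FU-c against HCT116. Leaving out miR-30a-5p gave 0.24 and -0.09. The difference in mean miR-30a-5p between HCT-Oxa-c and HCT116 was smaller than the SD of the sum in either line (n = 3). Those SDs came mainly from replicate 3, at 29634 CPM in HCT116 and 34117 CPM in HCT-Oxa-c. In the other replicates the sums lay closer together, at 21748 and 23607 CPM in HCT116 and 24336 and 25154 CPM in HCT-Oxa-c. The SDs therefore do not show that the miR-30a-5p difference lay within the spread of those other replicates.

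The share of miR-30a-5p in the sum differed more between the lines than the sum itself. miR-30a-5p supplied 6.04 ± 1.503% of the guide strand reads in HCT116 (SD, n = 3), 3.20 ± 2.19% in HCT-FU-c and 0.135 ± 0.0434% in HCT-Oxa-c. miR-30d-5p supplied 60.1 ± 11.9, 54.0 ± 16.4 and 69.4 ± 9.88% in the same order of lines. miR-30e-5p supplied 25.7 ± 8.48, 30.3 ± 11.4 and 22.5 ± 7.66%. miR-30a-5p was the lowest of the 5 guide strands in all 3 HCT-Oxa-c libraries and in replicate 2 of HCT-FU-c, while in the other 5 libraries miR-30b-5p was the lowest. Replicate 2 of HCT-FU-c was also the only library in which miR-30e-5p exceeded miR-30d-5p.

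**Figure D4:**
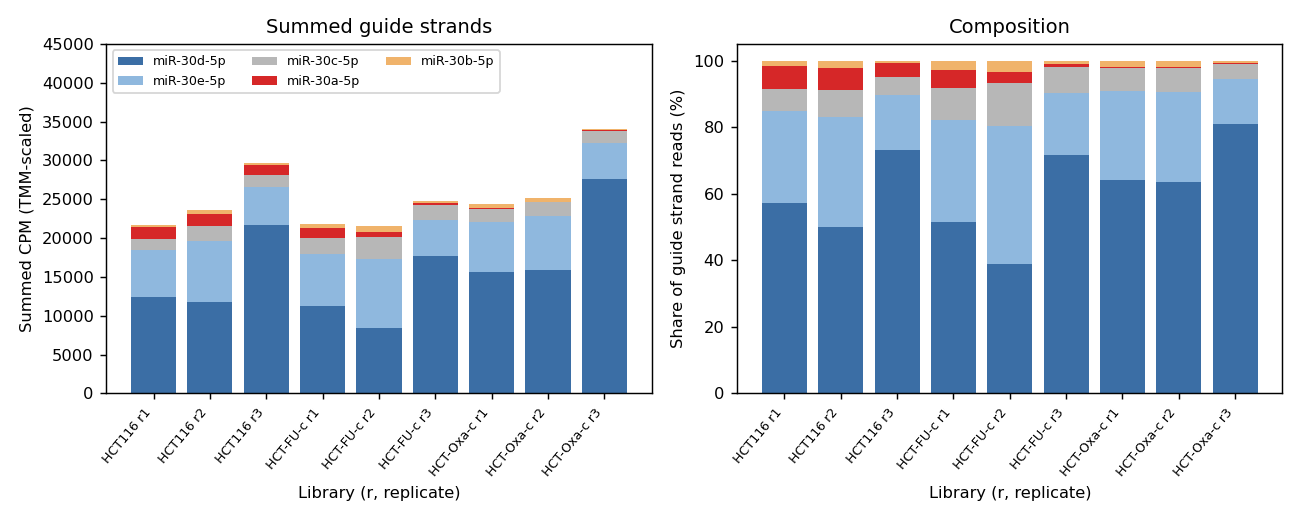
Summed CPM of the 5 guide strands in each library (left) and their shares of the guide strand reads in percent (right). The sums of the lines overlap, and miR-30a-5p takes 4.33 to 7.15% in HCT116 but 0.0854 to 0.166% in HCT-Oxa-c.

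Among the 359 other tested miRNAs, those whose log2 CPM followed miR-30a-5p most closely over the 9 libraries were miR-27a-3p (Pearson's r = 0.92), miR-629-5p (0.91) and miR-23a-3p (0.88). miR-27a-3p averaged 3985 CPM in HCT116, against 3748 CPM in HCT-FU-c and 2216 CPM in HCT-Oxa-c, and miR-23a-3p 9232, 8338 and 4631 CPM. In fold, these differences were far smaller than that of miR-30a-5p. The sum of the guide strands was followed most closely by miR-32-3p (0.91), miR-26b-5p (0.91) and miR-181b-5p (0.90). The points share line, library and replicate number, and the values are a description.

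A list of 7 miRNAs known for the epithelial state, the miR-200 family (miR-200a-3p, miR-200b-3p, miR-200c-3p, miR-141-3p and miR-429), miR-205-5p and miR-203a-3p, was read beside the family because miR-30 is known to act on the same transition. All 7 were tested. Only miR-205-5p was called between HCT-Oxa-c and HCT116, where it was higher, with 69, 48 and 31 counts in HCT-Oxa-c against 2, 0 and 0 in HCT116. None of the list was called between HCT-FU-c and HCT116. Between the sublines miR-205-5p and miR-203a-3p were called higher in HCT-Oxa-c. Over all tested miRNAs 2.45, 0 and 4.36% were called in the 3 comparisons. With 4, 7 and 0 counts in HCT-FU-c, miR-205-5p passed the filter on low counts only through HCT-Oxa-c, where it was high. The median log2 fold change of the list was 0.09, 0.01 and -0.002 in the 3 comparisons, beside -0.01, 0.02 and -0.07 over all tested miRNAs. With the block miR-203a-3p was also called against HCT116, higher in HCT-Oxa-c and lower in HCT-FU-c. In those comparisons the block called 14.7 and 5.45% of all tested miRNAs. The miR-200 family members were not called in any comparison, with or without the block.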

How the data were processed

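Small RNA libraries of 3 cultures each of HCT116, HCT-FU-c and HCT-Oxa-c were analysed, grouped by their labels. The authors made the libraries with the NEXTflex Small RNA-Seq v3 kit and read them on a MiSeq. For each mature miRNA the authors deposited a raw count and a normalized signal (the count over a size factor for the library), and the signal was not used here. The submitters' processing notes name CASAVA 1.8, Bowtie 1.1.2, DESeq2 and the build GRCh38.p7. The counting tool and its use of strand are not given in the sources used here.

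The counts were tested with edgeR 4.0.16 (R 4.3.3): TMM, filterByExpr (minimum count 10, minimum total 15), the quasi-likelihood F test with line as factor, prior count 0.125 and Benjamini-Hochberg adjustment over 367 of 1198 miRNAs, threshold 0.05. The code was tested on simulated data. Strand and locus ratios used log2 of counts plus 0.5 and exact permutation tests. Deviations from the line means correlated at 0.41 to 0.76 between libraries of the same replicate number. Between different numbers they correlated at -0.68 to 0.61. For number 1 alone the range was 0.41 to 0.51, below the 0.61 of HCT-FU-c replicate 2 with HCT-Oxa-c replicate 1. The pairing was thus clear for replicate 3 only. The labels number the replicates but name no batch, and the number was taken as a block in an alternative fit. Other alternatives were library scalings, DESeq2 1.42.0, other filters, a pseudocount of 1 and leaving out libraries. Totals of 856383 to 2207538 counts set a limit of 1.34 to 4.01 CPM for a count of 0. All 10 members, the nearest miRNAs by correlation and fixed lists are named. The members and lists were chosen with earlier results of these data known.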

Additional observations from a re-analysis of the deposited data

Results flagged for a closer look

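The differences of both sublines from HCT116 were compared with each other, which is the test between the sublines since the parent cancels. For miR-30a-5p the difference was -4.23 on the log2 scale and for miR-30a-3p -3.90, each with an adjusted p of 0.00443 (edgeR). The log2 fold change against HCT116 was thus more negative in HCT-Oxa-c for both strands.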

How the results depend on the processing

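Without the replicate block edgeR called 9, 0 and 16 miRNAs for HCT-Oxa-c against HCT116, for HCT-FU-c against HCT116 and between the sublines. With it the counts were 54, 20 and 97, with DESeq2 23, 4 and 43, and with at least 10 counts in every library 4, 1 and 9. Without a filter the comparisons with HCT116 gave 16 and 1. Replicates 1 and 2 only, a choice added after seeing the data, gave 43, 13 and 67.

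The miR-30a strands were called lower in HCT-Oxa-c, against HCT116 and against HCT-FU-c, under every alternative in which they could be tested. At least 10 counts in every library removed miR-30a-3p, so 1 member was called in either comparison. Under the replicate block, which pairs the libraries by number, 2 members were called for HCT-FU-c against HCT116, and 5 of 8 between the sublines, and no other member's call changed. Added after seeing the data, the block was also run with RLE size factors, total counts and TMM without miR-21-5p. The share of all miRNAs called was not computed for these fits, so only single members are named. For HCT-FU-c against HCT116 the block with total counts lost miR-30a-5p (adjusted p = 0.0526, edgeR) and called miR-30b-5p and miR-30c-5p, while the other scalings kept miR-30a-5p and lost miR-30b-5p. Between the sublines total counts lost miR-30e-3p and the other scalings miR-30c-5p.

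miR-30e-5p in HCT-Oxa-c against HCT116 turned from -0.05 to 0.0050 with TMM without miR-21-5p, to 0.0043 without a filter and to 7.52e-05 with the block and TMM without miR-21-5p. The miR-30d 5p to 3p ratio in HCT-FU-c against HCT116 turned to 0.0404 with a pseudocount of 1. The cause was not tested.

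Leaving out 1 library at a time gave 4 to 12 miRNAs for HCT-Oxa-c against HCT116 (fewest without HCT116 replicate 2, most without HCT116 replicate 3) and 6 to 23 between the sublines (without HCT-FU-c replicates 1 and 3). The miR-30a strands were called in all of these fits. In HCT-FU-c against HCT116 miR-30a-5p ranged from -1.69 to -0.71 and its ratio to miR-30d-5p from -1.53 to -0.12, lowest without HCT-FU-c replicate 1 and highest without HCT-FU-c replicate 3. In HCT-Oxa-c against HCT116 the log2 fold changes ranged from -0.036 to 0.72 for miR-30b-5p, -0.027 to 0.24 for miR-30c-5p, -0.22 to 0.20 for miR-30e-5p and -0.78 to 1.34 for miR-30e-3p. In HCT-FU-c against HCT116 they ranged from -0.67 to 0.044 for miR-30d-5p, -1.61 to 0.14 for miR-30d-3p, -0.13 to 0.29 for miR-30e-5p and -1.19 to 0.79 for miR-30e-3p. Between the sublines they ranged from -0.27 to 0.063 for miR-30e-5p and -0.42 to 1.44 for miR-30e-3p. None of these was called. The miR-30d-5p to miR-30e-5p ratio ranged from -0.022 to 0.86 for HCT-Oxa-c and -0.94 to 0.075 for HCT-FU-c against HCT116. For the 5p to 3p ratios, miR-30a ranged from -1.19 to 0.15 (HCT-FU-c against HCT116) and -1.04 to 0.25 (between the sublines), miR-30e from -1.22 to 0.56, -0.62 to 1.102 and -1.41 to 0.27 in the 3 comparisons, and miR-30d from -1.67 to 0.50 and -0.86 to 1.31 for the sublines against HCT116.

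The depth limited the passenger strands: miR-30a-3p in HCT-Oxa-c rests on 9 counts, and miR-30b-3p and miR-30c-2-3p were not tested. Ratio tests with 3 libraries a line cannot give a p below 0.1.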
